A study of Arabidopsis thaliana with 72 samples.

Results

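The 46 ATH1 probe sets described here had a fitted 24 h cosine of large amplitude in nicotinamide-treated Arabidopsis seedlings. In untreated wild type its amplitude was small, and mean levels in both differed by no more than 1 log2 unit. The 46 were chosen by measured values out of 22746 probe sets, without array controls. A 24 h cosine was fitted to the 12 time means of each condition on the log2(signal + 16) scale, and its amplitude is its height above the mean on that scale. The amplitude had to be 0.45 or more under nicotinamide and 0.2 or less in untreated seedlings. Mean signal had to be 50 or more in both, with means within 1 log2 unit, limits that 7352 probe sets met. Transcripts known to come from plastid or mitochondrial genomes were left out, which removed 4 probe sets, as were MCCA, IVD and SDP1, none of which met the limits. The array annotation gave 19 of the 46 members 1 gene each and listed none for the other 27, so for these an organellar origin could not be checked.

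RNA came from aerial tissue of seedlings kept at 19 °C for 11 days in 12 h light and 12 h dark and then in continuous light. The Nicotinamide-treated group was wild-type C24 given nicotinamide, at a dose not given in the sources used here. The toc1-1 group carried an EMS-induced mutation in At5g61380, with no ecotype in the labels, was otherwise untreated, and had 150 to 200 seeds plated against 70 to 100 for the C24 groups. The WT-untreated group was wild-type C24 without treatment. Each group had 24 arrays, from 2 replicate time courses sampled every 4 h at labelled times of 49 to 93 h. The labels do not say that the time courses came from separate batches of seedlings, so the p-values reflect variation between these arrays alone. Among the labels, only replicate 1 of WT-untreated was given developmental stage 1.03, and all other arrays were given 1.04.

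Plant circadian rhythms persist in constant light, driven by interlocked loops of transcription factors and their repressors, among them TOC1. Cytosolic free calcium also oscillates daily, and nicotinamide, an inhibitor of ADP-ribosyl cyclase, abolishes that oscillation. Nicotinamide is also a by-product and precursor of NAD metabolism, so it can act on more than calcium. The named members span leucine breakdown, wall loosening, membrane fusion, zinc finger proteins and proteins of unknown role.

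The members did not all behave as a clean daily rhythm under nicotinamide, because replicate arrays of the same time often disagreed. The replicate SD, the pooled SD between the 2 arrays of a time over 12 times, had a median of 0.59 under nicotinamide over the 46 members, against 0.23 in WT-untreated. Over all 13647 tested probe sets, the upper 60% by mean level, the median was 0.28 under nicotinamide and 0.19 in WT-untreated. The replicate SD was larger under nicotinamide in 45 members, or 97.8%, and in 81.2% of all tested probe sets. In 29 members it exceeded the nicotinamide amplitude itself, and that amplitude was more than 2 SE in 37. Both counts are descriptive, since that amplitude chose the members, and neither was set against all tested probe sets. A cosine accounted for 9.21% to 63.8% of the variance of a member's 24 nicotinamide values, with a median of 27.1%. The 213 probe sets with amplitude 0.45 or more in both conditions had a median of 51.8%, and their replicate SD had medians of 0.38 under nicotinamide and 0.31 in WT-untreated. In toc1-1 the members' median replicate SD was 0.18.

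**Figure D1:**
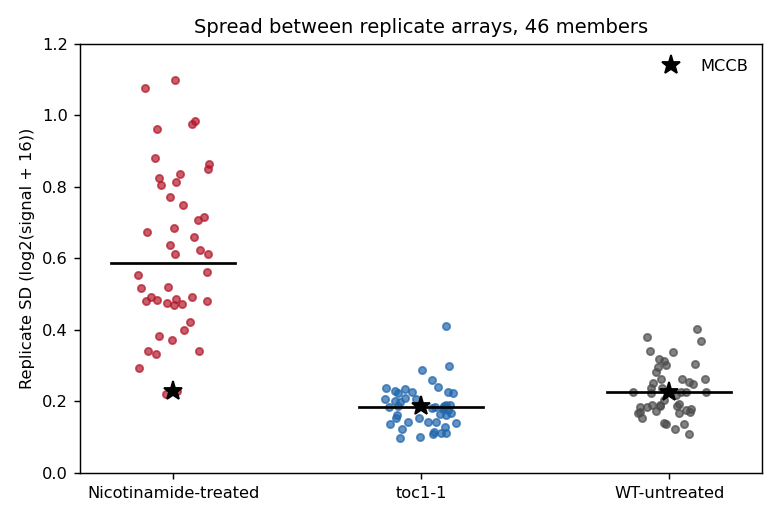
Replicate SD of each of the 46 members (points, log2(signal + 16) units) in Nicotinamide-treated, toc1-1 and WT-untreated seedlings, with the median as a bar and MCCB as a star. The medians are 0.59, 0.18 and 0.23, and MCCB lies near 0.23 under nicotinamide, far below most members.

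The members moved together from array to array. For 39 members, those whose cosine peaked 11 to 22 h after 48 h (limits set after the peaks were seen), the median deviation from the condition mean was 0.82 and 0.80 on the 65 h nicotinamide arrays. Of these 39, 36 lay above their mean on the replicate 1 array of 65 h and all 39 on the replicate 2 array. The peak hours came from these same arrays. High values near 65 h and low ones near 77 h therefore largely follow from the choice of the 39. At 93 h the deviations were 0.68 and 0.57. Both replicates were therefore high at 65 h and at 93 h, which are 28 h apart, while 89 h, 24 h after 65 h, had 0.21 and 0.08. The low values were less even. At 77 h the deviations were -1.30 in replicate 1 and -0.75 in replicate 2, both low. At 53 h, 24 h earlier, replicate 1 gave 0.52 and replicate 2 gave -1.03. At 85 h they were 0.08 and -1.06, and at 69 h 0.54 and -0.59. Replicate 1 gave the higher deviation at 11 of the 12 times, all but 77 h, and the higher array median at the same 11 times. The median disagreement between replicates of a time was 0.55 under nicotinamide, 0.060 in toc1-1 and 0.13 in WT-untreated.

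The 3 nicotinamide arrays on which these 39 members lay lowest also had the 3 lowest array medians of the 24. Their medians, over all probe sets without controls, were 5.26 at 77 h (replicate 1), 5.23 at 53 h (replicate 2) and 5.12 at 85 h (replicate 2), in a group range of 5.12 to 5.56. Array medians ranged from 5.63 to 5.74 in toc1-1 and from 5.60 to 5.76 in WT-untreated. The nicotinamide array medians themselves fitted a cosine of amplitude 0.056 peaking at 19.3 h. The 3′ over 5′ signal ratios of the actin and GAPDH control probe sets, a measure of RNA integrity, also fitted cosines under nicotinamide, with log2 amplitudes of 0.11 and 0.093 and peaks at 15.1 and 18.0 h. In toc1-1 those amplitudes were 0.11 and 0.12, with peaks at 19.8 and 16.7 h, and in WT-untreated 0.13 and 0.049, with peaks at 0.53 and 2.43 h. The part of the RNA integrity measures in the members' cosines was not tested. The part of these array differences in the members' cosines was not tested directly, but with each array's median subtracted the limits held 36 probe sets, 21 of them among the 46. Both nicotinamide arrays of 65 h, and the replicate 1 array of 49 h, have titles that end in an extra 2, whose meaning is not given. Without these 3 arrays, the limits held 24 probe sets, 20 of them among the 46. Without the 65 h arrays alone they held 17, with 15 shared.

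The other 7 members ran as a mirror image. Their median deviation was -0.53 and -0.82 at 65 h and 1.15 and 0.51 at 77 h under nicotinamide. All 7 lay above their mean on both 77 h arrays, and none did on either 65 h array. The 7 were set apart by peak hours fitted to these arrays, so opposition at 65 h and 77 h largely follows from that. The sign of the difference between replicates was opposite to that of the 39 at 10 of the 12 times, all but 65 h and 81 h. At 85 h the 7 stood at -0.26 in replicate 1 and 0.67 in replicate 2. In toc1-1 the deviations of both sets stayed between -0.35 and 0.26.

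**Figure D2:**
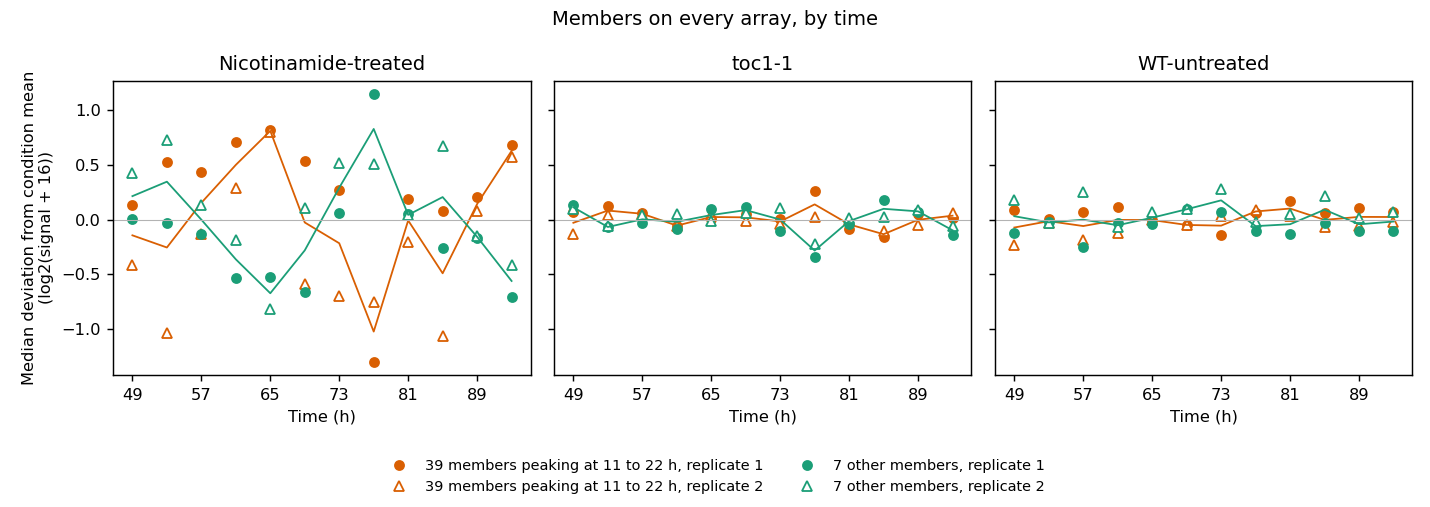
Median deviation from the condition mean (log2(signal + 16) units) of the 39 members peaking at 11 to 22 h (orange) and of the 7 others (green) on every array, against labelled time in h, with Nicotinamide-treated, toc1-1 and WT-untreated side by side. Filled circles are replicate 1, open triangles replicate 2, and lines the mean of both. Under nicotinamide the 39 members reach 0.82 and 0.80 at 65 h and fall to -1.30 and -0.75 at 77 h, while the replicates of 53 h, 69 h and 85 h lie far apart.

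MCCB had the steadiest pattern of the named members. It encodes the beta subunit of 3-methylcrotonyl-CoA carboxylase, a mitochondrial enzyme of leucine breakdown. Its nicotinamide amplitude was 0.55, and its replicate SD was 0.23 in both Nicotinamide-treated and WT-untreated seedlings. Sampling time accounted for 88.6% of its variance under nicotinamide. Its signal was 390 and 464 at 65 h and 414 and 350 at 93 h, where both replicates were high. It was 168 and 112 at 53 h, and 168 and 180 at 77 h, where both were low. The amplitude was 0.47 in replicate 1 and 0.63 in replicate 2, with peaks at 19.1 and 19.8 h. Over the 24 h from 49 h it was 0.69, and over the following 24 h 0.52, with peaks at 18.0 and 21.4 h. Its nicotinamide signal had a low of 112, a median of 261 and a high of 464. In toc1-1 the low was 123, the median 169 and the high 244, with an amplitude of 0.015. In WT-untreated the low was 112, the median 146 and the high 196, with an amplitude of 0.088, so the ranges overlapped at the low end. MCCA, the alpha subunit of the same carboxylase, and IVD, isovaleryl-CoA dehydrogenase, which acts one step earlier, were set aside by the rule. Their amplitudes were 0.72 and 0.71 under nicotinamide, and 0.39 and 0.26 in WT-untreated.

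EXPA15, an alpha-expansin of the class that loosens cell walls, had the largest amplitude among the 5 named mirror-image members, at 0.55. Its signal was 55.2 and 42.2 at 65 h, and 227 and 121 at 77 h. It was also high at 53 h in replicate 2, at 161, but not in replicate 1, at 85.1. AT2G34510, of the DUF642 family of wall proteins, had an amplitude of 0.46. Its mean signal was 69.2 under nicotinamide and 134 in WT-untreated. AT3G02910, an AIG2-like protein, peaked at 7.74 h with an amplitude of 0.49. Its signal reached 1132 and 810 at 77 h, against 325 and 312 at 65 h, and sampling time accounted for 79.9% of its variance. The replicates differed at 85 h, with 683 and 1299. AT2G27580, an A20/AN1 zinc finger protein of a family linked to stress responses, and AT2G29180 had amplitudes of 0.48 and 0.49.

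AT1G32700, KELP, AT5G25560, AT5G16680 and AT1G63980, all among the 39, had replicate SDs of 0.72 to 1.099, above the median of 0.59. AT1G32700 encodes a PLATZ-type zinc finger transcription factor. Its nicotinamide signal ranged from 53.9 to 671 with a median of 350, against 185 to 395 with a median of 241 in WT-untreated. Its amplitude was 0.52 and its replicate SD 0.98. KELP, a transcriptional coactivator, had a nicotinamide low of 3.98 at 77 h (replicate 1) and a high of 250 at 93 h (replicate 1). At 69 h its replicates were 125 and 25.1, and at 73 h 133 and 26.7. Replicate 1 gave the higher KELP signal at 10 of 12 times. AT5G25560, a CHY and RING zinc finger protein, had an amplitude of 0.50 and a replicate SD of 0.77. AT5G16680, a RING/FYVE/PHD zinc finger protein, had an amplitude of 0.47 and a replicate SD of 0.72. AT1G63980, a G-patch protein named here outside the naming rule, had the largest replicate SD of all 46 members, at 1.099.

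KEU, the Sec1/Munc18 protein KEULE that works in vesicle fusion during cytokinesis, had its lowest time mean at 77 h and its highest at 65 h. Those means were 36.9 and 265. Its WT-untreated signal stayed between 119 and 175. AT1G70810, a C2 domain protein, ranged from 23.7 to 382 under nicotinamide and from 136 to 348 in WT-untreated. AT4G34150, also with a C2 domain, peaked earlier, at 11.8 h, and did not share the low at 77 h. Its highest time mean was 705 at 61 h and its lowest 271 at 49 h. Its mean signal was 468 under nicotinamide and 215 in WT-untreated. AT2G23120, a late embryogenesis abundant protein, a class that accumulates in drying tissue, had time means of 1141 at 89 h and 300 at 85 h.

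Among the rest, AT1G54740 had the largest amplitude of the 19 named members, 0.55. Its signal was 98.3 and 183 at 49 h, 132 and 251 at 65 h, and 30.2 and 127 at 77 h. Its 24 nicotinamide values had a median of 145, against 77.8 in WT-untreated. AT1G12120 had an amplitude of 0.54 and its lowest value, 1.01, at 85 h in replicate 2. AT1G22930, with a T-complex protein 11 domain, had an amplitude of 0.49. AT3G59040, a pentatricopeptide or tetratricopeptide repeat protein, had 0.26 in replicate 1 and 0.74 in replicate 2. Replicate 1 gave the higher nicotinamide signal at all 12 times in AT5G25560, KEU and AT3G59040, at 7 in MCCB and at 2 in AT4G34150, so the offset between the time courses did not run one way. Of the 19 named members, 10 had their lowest nicotinamide time mean at 77 h, and 5 had their highest there.

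**Figure D3:**
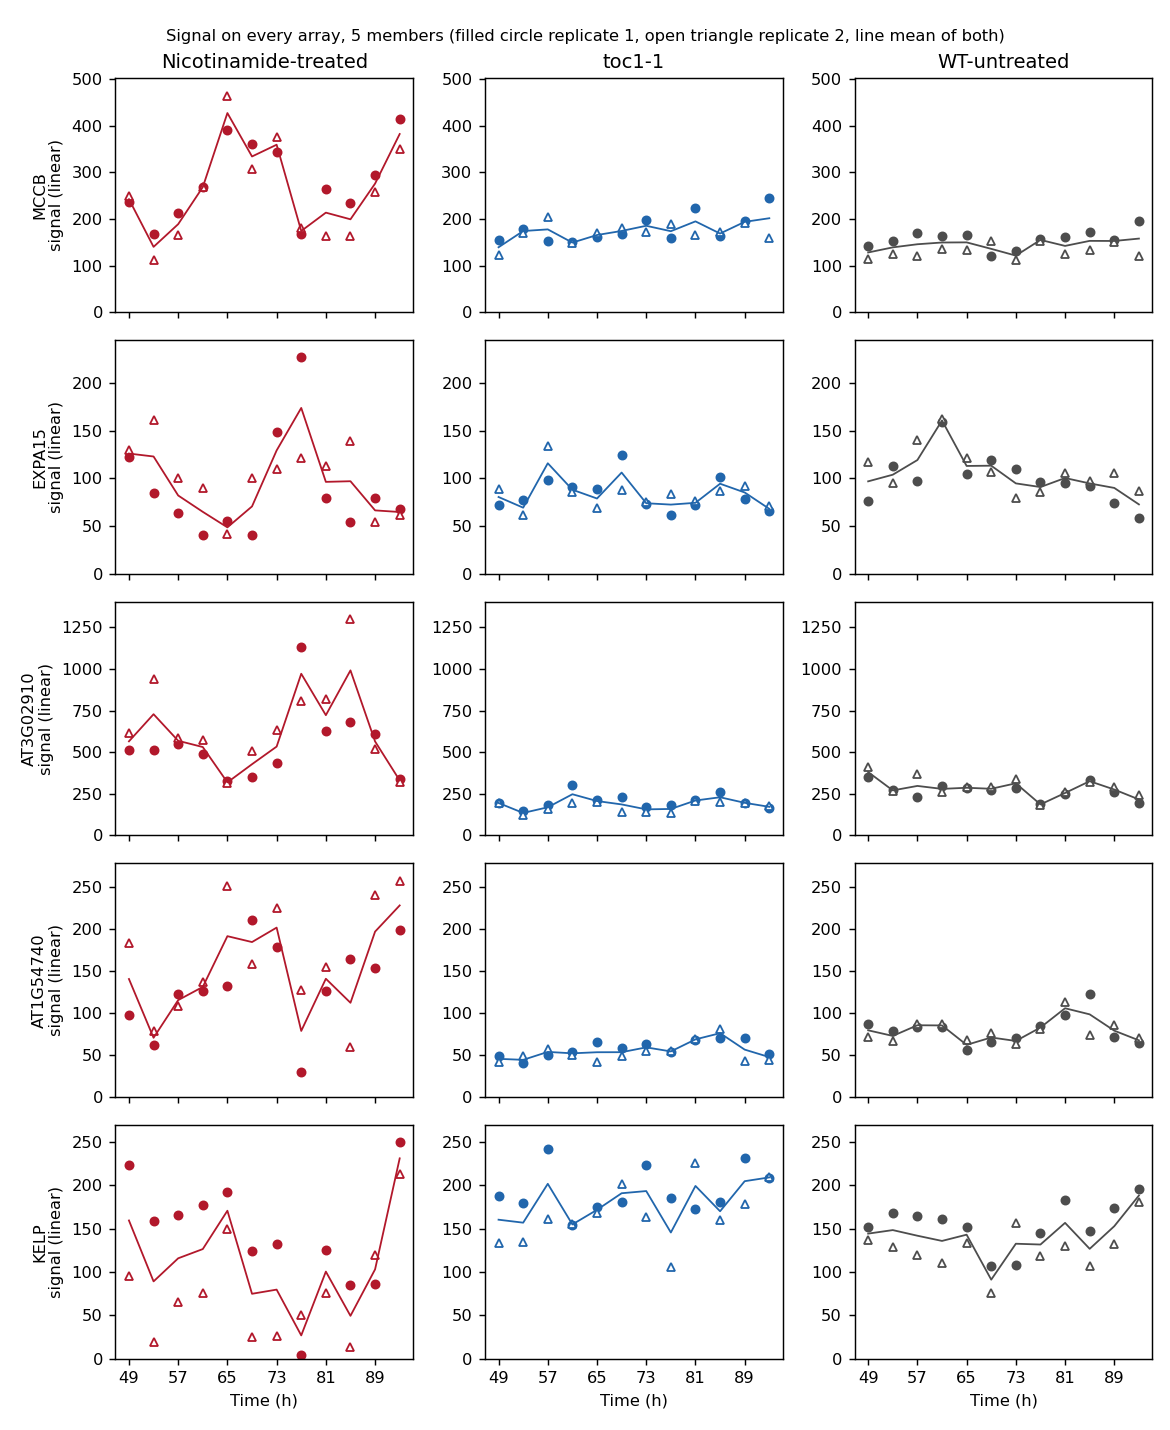
Linear signal of MCCB, EXPA15, AT3G02910, AT1G54740 and KELP (rows) on every array against labelled time in h, with Nicotinamide-treated, toc1-1 and WT-untreated from left to right. Filled circles are replicate 1, open triangles replicate 2 and lines their mean. The MCCB replicates lie close together, at 390 and 464 at 65 h, while those of KELP lie apart, at 125 and 25.1 at 69 h.

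Over all 46 members the amplitude ran from 0.45 to 0.72 under nicotinamide with a median of 0.49, and from 0.023 to 0.20 in WT-untreated with a median of 0.12. These values chose the members and are descriptive. The median difference of level, nicotinamide minus untreated, was 0.15, with 25 members above 0 and 21 below. It ranged from -0.96 to 0.99, nearly the whole width that the limit allowed. Read in single time courses, the nicotinamide amplitude was 0.45 or more in 24 members in replicate 1 and in 40 in replicate 2, and in both for 18. The peaks of the replicates lay within 4 h of each other in all 46 members, which the rule favours, since opposed replicates would cancel in the mean. When the limits were applied to replicate 1 of both conditions alone, 60 probe sets met them, and 21 of these (35.0%) had an amplitude of 0.45 or more in replicate 2 of nicotinamide. The share over probe sets that met only the signal and level limits was 6.21%. With the replicates exchanged, 118 met the limits and 18 of these (15.3%) had such an amplitude in the held-out course, against 3.9%. Both amplitude limits were met in the held-out courses by 10 and by 9. Of the 60 and the 118 probe sets, 16 and 27 were among the 46 members, so these shares mostly describe other probe sets. The comparison shares set no limit on untreated amplitude. In the held-out course the chosen probe sets reached 0.45 more often than those shares, but most fell below it.

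Peaks gathered late in the cycle. The circular mean peak under nicotinamide was 16.8 h after 48 h, and 36 of 46 members (78.3%) peaked at 14 to 20 h. That window held 36.9% of all tested probe sets and 36.6% of those with amplitude 0.45 or more in both conditions, so the members' peaks were more gathered than either. It held 68.4% of the 19 named members. It also held 63.2% of the 87 probe sets that met the amplitude and signal limits at any level difference, the 46 included. The hour was not a criterion, but members that share high and low arrays also share a fitted peak. The mean peak was 17.0 h in replicate 1 and 16.5 h in replicate 2. Fitted to the earlier 6 times alone it was 14.7 h, and to the later 6 it was 18.8 h, and 30 members had both peaks within 4 h. The amplitude was 0.45 or more in both cycles for 30 members. GI, COR27 and COR28, clock-regulated genes, gave a period of 26.0 h under nicotinamide, 21.6 h in toc1-1 and 23.7 h in WT-untreated over 3 probe sets. With those periods in the cosine, 77 probe sets met the limits, 44 of the 46 members among them.

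Membership rested on single arrays. With 1 nicotinamide array left out at a time, the number of probe sets that met the limits ranged from 17 without 53 h replicate 2 to 214 without 53 h replicate 1. It was 29 without 57 h replicate 2 or without 69 h replicate 1, and between 78 and 113 without 57 h replicate 1, 69 h replicate 2, 73 h replicate 1, 77 h replicate 2, 81 h replicate 1, 85 h replicate 2 or 89 h replicate 2. Of the 46 members, 8 met the limits in all 24 of these leave-outs, with EXPA15 and MCCB the named ones among them, and the median member met them in 20. Without the 3 arrays of lowest deviation together, a choice made after seeing the data, 11 probe sets met the limits. Of these, 8 were among the 46, and EXPA15 and MCCB were again the only named ones. EXPA15 also stayed within the limits under quantile normalization, without the arrays of extra title number, without 65 h and with array medians subtracted. MCCB stayed within them in all of these but the last. With the limits applied to the replicate 2 time courses alone, EXPA15 did not meet them. MCCB met them on the courses of each replicate alone.

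**Figure D4:**
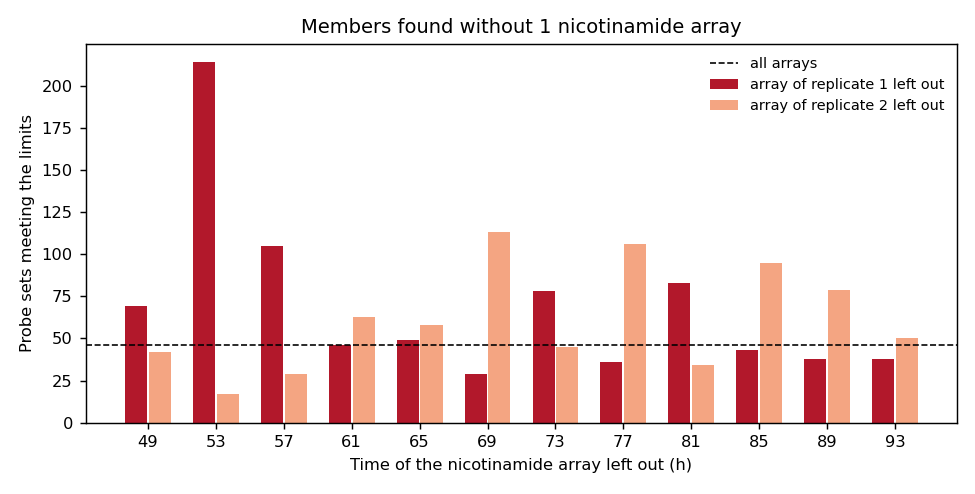
Number of probe sets that met the limits when 1 nicotinamide array was left out, against the time of that array in h, with dark bars for replicate 1 and light bars for replicate 2. The dashed line marks the 46 found with all arrays, and the bars run from 17 to 214, both at 53 h.

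The limits cut through a continuous range. AT2G34510, AT5G16680 and AT3G59040 were the named members of lowest nicotinamide amplitude, at 0.46, 0.47 and 0.47. AT4G16490, AT5G47070 and AT3G28040 lay just under the limit, each at 0.446. AT4G34150, AT1G54740 and AT2G34510 were the named members of highest untreated amplitude, at 0.20, 0.20 and 0.18. AT3G19010, AT2G29320 and AT5G42050 lay beyond that limit, at 0.21, 0.21 and 0.22. AT5G42050 had a mean signal of 545 under nicotinamide and 403 in WT-untreated.

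The toc1-1 arrays played no part in the choice, so a rhythm there could be tested. None of the 46 members was called rhythmic in toc1-1 at 24 h (limma moderated F test over 13647 probe sets, adjusted p under 0.05), while 8.54% of all tested probe sets were. The rule had removed every probe set with an untreated amplitude above 0.2, which set most of that gap. Among the 5575 tested probe sets that met the signal, level and untreated amplitude limits, 1.13% were called. At an unadjusted p under 0.05 there were 3 members (6.52%), against 5.74% of those 5575. That fit shares its spread with the nicotinamide arrays, where the members vary most, so those shares are not on equal terms. A fit to toc1-1 and WT-untreated arrays alone, added after seeing the data, called 3 members rhythmic, or 6.52%, against 4.56% of those 5575 and 15.3% of all tested. The named ones were AT2G23120, with a toc1-1 amplitude of 0.26 (adjusted p = 0.00148 in that limma fit), and AT3G02910, with 0.24 (adjusted p = 0.00852). In the fit to all arrays their adjusted p from limma were 0.153 and 0.0755. At an unadjusted p under 0.05, the limma fit to toc1-1 and WT-untreated arrays alone gave 10 members (21.7%), against 26.8% of all tested. Its share over the 5575 was not counted. No member reached 0.45 in toc1-1, and the highest amplitude was 0.26. The toc1-1 amplitude exceeded the untreated one in 17 members (37.0%), and in 31.7% of all tested.

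Of the 46 members, 16 rose in toc1-1 relative to WT-untreated (34.8%, limma adjusted p under 0.05), against 22.1% of all tested, and 7 fell (15.2%), against 19.6% of all. The median difference was 0.14, against 0.025 over all tested. All 16 that rose belonged to the 39 members peaking at 11 to 22 h under nicotinamide, of which 1, AT1G54740, fell and 22 were not called. Of the 7 mirror-image members, 6 fell, none rose and 1 was not called. These sets were cut after the peaks were seen, and the difference between them was not tested. The untreated values enter both the choice of members and this contrast. The fit to toc1-1 and WT-untreated arrays alone called 25 higher (54.3%, against 29.7% of all) and 9 lower (19.6%, against 23.7%). With the time courses as a random block, 4 were called higher and 2 lower. The counts were 10 higher and 4 lower without toc1-1 replicate 1, 10 and 6 without toc1-1 replicate 2, and 9 and 3 without WT-untreated replicate 2. Seed density differed between these groups together with the mutation and cannot be told apart from it, and the ecotype of toc1-1 is not given in the labels. Root markers also moved in this contrast: of 5 tested, 4 fell in toc1-1. These were the root peroxidases PRX44, PRX57, PRX45 and PRX27, with log2 differences of -2.67, -1.91, -1.67 and -1.41, while PYK10, a root beta-glucosidase, differed by -0.00071. Their part in the members' level differences was not tested. Fewer cells of a type and less RNA per cell cannot be told apart in such samples.

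AT1G70810 rose most among the named members, by 0.51 ± 0.11 (SE, limma adjusted p = 0.000361). Its signal in toc1-1 ran from 233 to 535 with a median of 349, against 136 to 348 with a median of 235 in WT-untreated. MCCB rose by 0.25 ± 0.062 (SE, limma adjusted p = 0.00114). AT3G02910 fell by 0.54 on the log2 scale (SE 0.072, limma adjusted p = 9.09e-08), with a median signal of 192 in toc1-1 and 277 in WT-untreated. The ranges of the groups overlapped for each of these genes. AT1G54740 fell by 0.42 (SE 0.092), AT2G34510 by 0.36 (SE 0.068), AT2G29180 by 0.28 (SE 0.077) and EXPA15 by 0.26 (SE 0.089). The limma adjusted p of these 4 genes lay between 4.68e-05 and 0.0181. With the time courses as a random block only AT3G02910 and AT2G34510 of these named genes kept their calls. Without WT-untreated replicate 2, the changes of MCCB, AT2G29180 and EXPA15 were 0.14, -0.18 and -0.20 and were not called. KELP and KEU, at 0.32 ± 0.16 and 0.23 ± 0.14 (SE), were not called in the fit to all arrays. In the fit to toc1-1 and WT-untreated arrays alone they were.

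**Figure D5:**
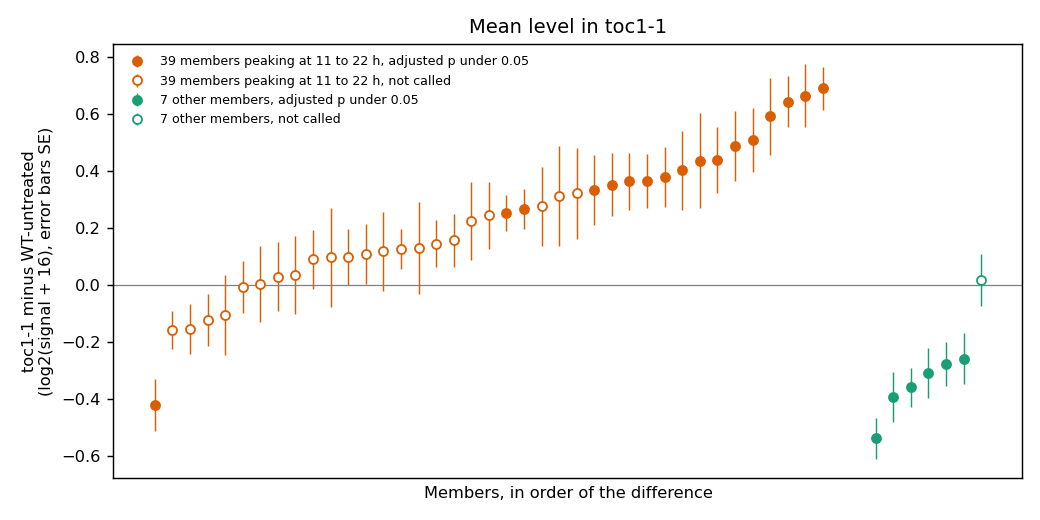
Difference of mean level, toc1-1 minus WT-untreated (log2(signal + 16) units, error bars SE from the limma fit), of the 39 members peaking at 11 to 22 h under nicotinamide (orange) and the 7 others (green), each in order of the difference. Filled points have an adjusted p under 0.05. Of the 39, 16 are called higher and 1 lower, and of the 7, 6 are called lower.

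None of the 54 named genes in 11 lists of clock, calcium, stress, sugar, autophagy and tissue genes was a member. With 46 members among 22746 probe sets, none would be expected among 54, so the absence is uninformative. MCCA, IVD and SDP1, which are in the sugar list, were also barred by the rule. The annotation named 54 of the 197 genes listed and none of a further list, of jasmonate genes, so the others were not looked at. Several had a larger cosine under nicotinamide but missed a limit. ZAT10, a zinc finger protein of stress responses, reached 0.53 with nicotinamide and 0.10 without it. Its mean level under nicotinamide was 1.76 log2 units above that in WT-untreated, which put it outside the level limit. CML38, a calmodulin-like protein, had 0.66 and 0.15, with a mean signal of 10.1 in WT-untreated. The amplitude was larger under nicotinamide than in WT-untreated in 60.7% of all tested probe sets, with medians of 0.16 and 0.12. All 6 named genes of the wound, touch and calcium list had a larger amplitude under nicotinamide, with medians of 0.48 and 0.17. Their replicate SDs under nicotinamide ran from 0.47 to 0.59. CML37, CML38 and CML23 were dim in WT-untreated, with mean signals of 8.81, 10.1 and 22.0. Of the 9 ATG8 genes, small proteins of the autophagosome membrane, 7 had a larger amplitude under nicotinamide, with medians of 0.24 and 0.063. ATG8H had the largest there at 0.34, with a replicate SD of 0.70. The 7 clock genes ran the other way, with medians of 0.88 under nicotinamide and 1.097 in WT-untreated, and 1 of them had a larger amplitude under nicotinamide. Among 3 named NAD genes, QPT, an enzyme of NAD synthesis, had 0.36 and 0.14. Its replicate SD under nicotinamide was 0.87, and its mean level there was 0.98 log2 units below that in WT-untreated. NADS had 0.11 and 0.10, and NAMNAT 0.081 and 0.051. Of these lists, 1 of 9 ATG8 genes, 5 of 7 clock genes and 0 of 4 tested wound genes were called rhythmic in toc1-1.

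Leaf and root markers gave the tissue check. The summed signal of 3 of 6 leaf markers with a probe set had medians of 9455 under nicotinamide, 10492 in toc1-1 and 10991 in WT-untreated. RCA, Rubisco activase, averaged 5727, 4755 and 5209 in the same order of groups. LHCB4.1 and LHCB4.2, light-harvesting proteins, averaged 3811 and 688 under nicotinamide, 4298 and 1188 in toc1-1, and 4609 and 1314 in WT-untreated. The summed signal of 8 of 10 root markers with a probe set ran from 1136 to 2999 under nicotinamide, from 2148 to 5165 in toc1-1 and from 1339 to 6185 in WT-untreated. PYK10 carried most of it, at 2212, 3570 and 3624 in that order. PRX44 averaged 2.15 under nicotinamide, 17.5 in toc1-1 and 194 in WT-untreated, and the other 6 root markers were also lower under nicotinamide and in toc1-1 than in WT-untreated.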

How the data were processed

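Total RNA was hybridised to 72 Affymetrix ATH1 arrays. The authors deposited linear signal intensity for every probe set. The submitters' processing notes name MAS5 and GCOS, with no version. Each array averages 100 once 2% of probe sets are trimmed at either end, as was checked. There is no read depth on arrays, whose number limits the precision. Analysis used log2(signal + 16), a scale that understates changes of dim probe sets.

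The 46 members and all gene lists were chosen with earlier results of these data known. Probe sets took a gene from the supplied annotation, where 13513 have 1 gene, 503 several and 8794 none, and from RefSeq locus tags. No reference sequence was used.

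A mean for each of 36 condition and time combinations was fitted in limma 3.58.1 under R 4.3.3 over 13647 probe sets, the upper 60% by mean, with an intensity trend and 36 residual degrees of freedom. Adjusted p are Benjamini-Hochberg values over all of these, with a threshold of 0.05. Rhythm in toc1-1 was tested by a moderated F test on both terms of the 24 h cosine, and level was the mean of 12 times, toc1-1 minus WT-untreated. Values chosen by the rule got no test. The procedure was tested on simulated data. Peak hours count from 48 h. Named genes were, among members with 1 gene, the 14 of largest nicotinamide amplitude, up to 8 rhythmic in toc1-1, up to 4 highest and 4 lowest called in toc1-1 level, the 3 at each amplitude limit with the 3 nearest outside, and up to 3 per list. The alternatives tried are given in the closing section.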

Additional observations from a re-analysis of the deposited data

How the results depend on the processing

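The count of 46 rested on the settings more than any other result. It was 121 with a pseudocount of 1, 15 with one of 64, 24 with quantile normalization and 24 without the 3 arrays whose titles end in 2. It was 77 with the period of each condition, 172 with a linear trend, 12 and 149 with amplitude limits of 0.5 and 0.15 or 0.4 and 0.25, 26 with a signal of 100 or more, 22 with means within 0.5, and 118 on replicate 2 alone. Settings added after seeing the data gave 11 without the 3 lowest nicotinamide arrays and 17 without 65 h. Leaving out 1 array or 1 time course gave 17 to 214.

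The mean peak of 16.8 h was 16.3 h without the arrays whose titles end in 2, 16.1 h without 77 h replicate 1 and 85 h replicate 2, 16.2 h with the period of each condition and 15.9 h without the 3 lowest arrays, and leaving out 1 array or course gave 16.0 to 17.5 h.

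Members rhythmic in toc1-1, 0 in the main fit, were 1 with quantile normalization, 1 with the period of toc1-1, 1 with a random block, 2 without nicotinamide 77 h replicate 1 and 85 h replicate 2, 3 in the fit to toc1-1 and WT-untreated alone, and 0 to 3 with 1 array or course left out. Level calls in toc1-1, 16 higher and 7 lower (23), were 4 higher and 2 lower (6) with a random block, 25 higher in the fit to toc1-1 and WT-untreated alone, and 4 higher and 0 lower (4) at a change of 1.5-fold or more. Leaving out 1 array or course gave 9 to 25 higher, 3 to 9 lower and 12 to 34 in all, with 12 of the 23 kept without WT-untreated replicate 2. No called difference of a named gene reversed under the settings run, and EXPA15 lost its call under 6 of 19 settings, the most of the 7 called genes.

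The labels do not say whether groups of the same replicate number were grown or processed together. Same-numbered arrays deviated together only weakly (median r = 0.197 for nicotinamide and WT-untreated, 0.0822 for toc1-1 and WT-untreated), which does not settle it. With the number as a replicate block, 0 members were rhythmic in toc1-1, and 18 were higher and 8 lower (26).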
